A study of Mus musculus with 6 samples.

Results

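The 5 genes described here carry glucose into heart cells and trap it there. They are the facilitative glucose transporters Slc2a1, Slc2a3 and Slc2a4 (the proteins GLUT1, GLUT3 and GLUT4) and the hexokinases Hk1 and Hk2, chosen by symbol from the 15118 genes of the deposited table, each with a single row. All 5 were among the 13080 genes tested. The hearts, 6 in all, were taken whole from E12.5 mouse embryos of the Black-Swiss strain. Every embryo carried the Cre recombinase at 1 of its Nkx2-5 alleles, so that loxP-flanked (floxed) alleles are cut in heart muscle cells and their progenitors. The 3 control hearts (numbered 2, 5 and 9) were WT/flox at Hif1a, and the 3 mutant hearts (5, 8 and 10) were Null/flox. Cells with Cre activity thus keep 1 functional Hif1a allele in the controls and none in the mutants, and cells without it keep the floxed allele, beside a wild-type allele in controls and a null allele in mutants. The comparison asks which transcripts depend on genotype in the fetal heart.

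Glucose enters a cell down its gradient through the SLC2A carriers, and hexokinase phosphorylates it to glucose-6-phosphate, which the carriers do not return. GLUT1 is the general carrier of the embryo and of fetal heart muscle, GLUT3 has a high affinity for glucose and is prominent in neurons, placenta and blood cells, and GLUT4 is the carrier that insulin brings to the surface of muscle and fat cells. Hexokinase 1 is broadly expressed, hexokinase 2 is typical of muscle and fat, and both bind the outer mitochondrial membrane through their N-terminus. Slc2a1, Slc2a3 and Hk2 are textbook targets of the transcription factor HIF1, whose oxygen-sensitive subunit is encoded by Hif1a.

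Values are RPKM (reads per kilobase of exon, scaled to the depth of the library), means carry the SD over 3 hearts, and log2 changes are mutant minus control on log2(RPKM + 1), which understates changes of low values. Low values implied between 101500000 and 158700000 reads behind a library. From these depths and the listed exons each member rested on at least about 1110 reads per heart (Slc2a3), where counting alone gives an error of 3.01%. Since the labels call the samples hearts and add nothing on litters or batches, p-values reflect only the scatter among these 6. Hif1a itself measured 61.1, 46.4 and 46.4 RPKM in controls 2, 5 and 9 and 75.7, 55.0 and 77.7 RPKM in mutants 5, 8 and 10. Which exons the alleles lack is not stated in the labels, so this value does not check the deletion. All 10 heart muscle markers were detected, with a median log2 change of 0.11 and 1 of them called higher in the mutants. The first principal component (45.3% of the variance) ran from control 2 to mutant 8, and the summed RPKM of 5S ribosomal RNA rows followed nearly the same order, from 10.2 in control 2, 30.3 in control 5 and 69.6 in control 9 to 111 in mutant 10 and 184 in mutant 8, with 29.8 in mutant 5.

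Of the 5 members only Slc2a3 passed the test over all genes, and it fell in the mutant hearts. Slc2a1 and Hk2 had lower means in the mutant hearts, and Slc2a4 and Hk1 had higher means, none of them past the threshold. In limma, 0.818% of all tested genes were called at an adjusted p of 0.05, 0.398% lower and 0.420% higher. Values of the genotypes did not overlap, with mutants below controls, in Slc2a3 and Hk2, as in 9.43% of all tested genes, and with mutants above controls in Slc2a4, as in 7.60% of them.

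**Figure D1:**
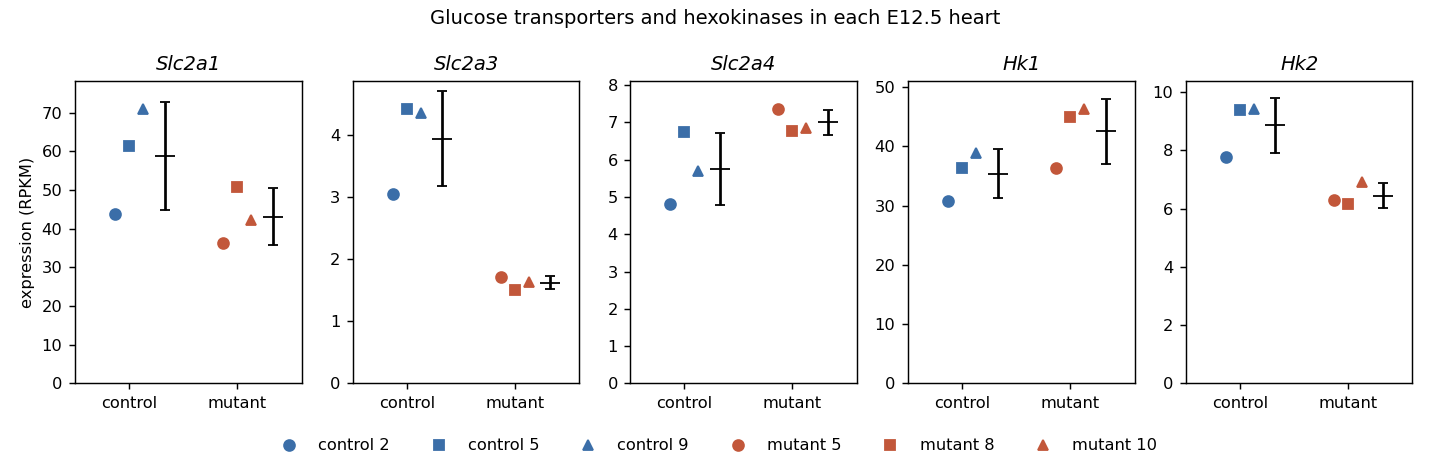
Expression of the 5 genes in RPKM (linear axes from 0, a scale for each gene), with a symbol for each heart, controls in blue and mutants in red, and the mean ± SD of 3 hearts in black. The mutant hearts lie below all controls for Slc2a3 (1.51 to 1.72 against 3.06 to 4.43 RPKM) and Hk2, and the genotypes overlap for Slc2a1 and Hk1.

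Slc2a1 (ENSMUSG00000028645, mm10 chromosome 4, 119108711 to 119137983, plus strand) was the most abundant transporter in every heart. It measured 43.7, 61.5 and 71.1 RPKM in controls 2, 5 and 9 and 36.2, 50.8 and 42.3 RPKM in mutants 5, 8 and 10. The genotypes overlapped, because control 2 lay below mutant 8. The means were 58.8 ± 13.9 RPKM for the controls and 43.1 ± 7.30 RPKM for the mutants, a ratio of 0.733. The log2 change was −0.42 ± 0.18 SE (95% interval −0.84 to −0.01), with an unadjusted p = 0.0457 and an adjusted p = 0.43 in limma. Within each genotype the hearts had the same order by Slc2a1 as by the 5S ribosomal RNA sum, lowest in control 2 and mutant 5 and highest in control 9 and mutant 8. The sum was on average higher in the mutants, so with that order adjusting for it had to widen the difference. With that sum as a covariate, an alternative chosen after seeing the data, the log2 change was −0.76 (limma adjusted p = 0.016). Control 2 and mutant 8, the ends of the first component, were also the lowest control and the highest mutant for Slc2a1. Leaving both out therefore had to widen the difference, and in the 4 hearts left the log2 change was −0.74 (limma adjusted p = 0.044). It was −0.27 without control 9 (limma adjusted p = 0.68).

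Slc2a3 (ENSMUSG00000003153, chromosome 6, 122727809 to 122801640, minus strand) was the least abundant of the 5 genes in both genotypes and had the largest change among them. It measured 3.06, 4.43 and 4.35 RPKM in controls 2, 5 and 9 and 1.72, 1.51 and 1.63 RPKM in mutants 5, 8 and 10. Every mutant heart lay below every control heart, and the mutants lay close together. The mean fell by 58.9%, from 3.95 ± 0.768 to 1.62 ± 0.105 RPKM. On the log2 scale the change was −0.90 ± 0.13 SE, with an adjusted p = 0.015 in limma, the gene's p-value being number 54 from the smallest among all tested genes. The call did not hold without control 5 (limma adjusted p = 0.096), without mutant 10 (0.085) or without both control 9 and mutant 8, which lack chromosome Y transcripts (0.12), with log2 changes of −0.83, −0.91 and −0.81. With a pseudocount of 5 the log2 change was −0.43 (limma adjusted p = 0.019).

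Marker sums of some other cell types were lower in the mutant hearts, as was Slc2a3. The summed RPKM of 9 macrophage markers in the table was 33.1 to 36.1 in control and 11.9 to 26.0 in mutant hearts, lowest in mutant 10, and that of 8 epicardial and mesenchymal markers was 406 to 469 and 262 to 376. Over the tested markers the median log2 change was −0.62 for the macrophage and −0.34 for the epicardial and mesenchymal list. For the endothelial and endocardial, neural and platelet lists it was −0.16, 0.26 and 0.18. The endothelial and endocardial sum was 124 to 144 in control and 113 to 136 in mutant hearts. Sums of 3 neural markers (3.79 to 5.49 and 5.36 to 5.84) and 4 platelet markers (10.7 to 13.2 and 8.86 to 25.1) were not lower throughout. No tested marker of these lists passed the threshold. Their part in the change of Slc2a3 was not tested, and in whole hearts fewer cells of a type and less RNA per cell cannot be told apart.

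Slc2a4 (ENSMUSG00000018566, chromosome 11, 69942539 to 69948188, minus strand) lay in the opposite direction. Values were 4.80, 6.74 and 5.70 RPKM in controls 2, 5 and 9 and 7.37, 6.76 and 6.86 RPKM in mutants 5, 8 and 10. The genotypes were separated by a narrow gap, between control 5 and mutant 8, and overlapped after rescaling by the total without haemoglobin genes. Means were 5.74 ± 0.968 and 7.00 ± 0.329 RPKM, with a log2 change of 0.25 ± 0.12 SE (95% interval −0.01 to 0.52, limma adjusted p = 0.47). Without control 2, the lowest heart, the change was 0.15 (limma adjusted p = 0.69).

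Among the hexokinases, Hk1 (ENSMUSG00000037012, chromosome 10, 62268855 to 62379908, minus strand) was the main form. It measured 30.8, 36.4 and 38.9 RPKM in controls 2, 5 and 9 and 36.3, 44.9 and 46.4 RPKM in mutants 5, 8 and 10. Mutants 8 and 10 lay above all controls, and mutant 5 lay among them. Means were 35.4 ± 4.15 and 42.6 ± 5.44 RPKM (log2 change 0.26 ± 0.13 SE, 95% interval −0.03 to 0.54, limma adjusted p = 0.49). In the 4 hearts without control 2 and mutant 8 the change was 0.12, and with the 5S sum as a covariate 0.06. The summed RPKM of the 10 heart muscle markers was 13200 to 15400 in control and 15200 to 17200 in mutant hearts, in the direction of Slc2a4 and Hk1, and its part in their values was not tested. The 1 marker called was Nppa, the gene of a natriuretic peptide hormone, named here after its values were seen. It averaged 1040 ± 48.3 RPKM over the controls against 1740 ± 130 RPKM over the mutants, a log2 change of 0.75 (limma adjusted p = 0.012). That call was lost without control 2, control 5 or mutant 10 (adjusted p = 0.052, 0.072 and 0.074 in limma), without mutant 8 together with either control 2 or control 9, and with the 5S sum as a covariate. Of its 865 exon bases, 532 overlap the antisense gene Gm13054.

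Hk2 (ENSMUSG00000000628, chromosome 6, 82725025 to 82774454, minus strand) was lower in each mutant heart than in any control heart. Its values were 7.76, 9.38 and 9.43 RPKM in controls 2, 5 and 9 and 6.28, 6.14 and 6.92 RPKM in mutants 5, 8 and 10. The separation was again smallest at control 2, against mutant 10. Means were 8.86 ± 0.954 and 6.44 ± 0.415 RPKM, a ratio of 0.727, with a log2 change of −0.40 ± 0.11 SE (95% interval −0.64 to −0.16, unadjusted p = 0.00417, limma adjusted p = 0.17). The adjusted p stayed above the threshold in all 17 alternative settings of the limma fit, between 0.091 and 0.71, and the log2 change lay between −0.49 and −0.27.

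Exon sharing with other genes was small. Slc2a1 shares 105 of its 3506 exon bases with the antisense gene Gm12868 and Hk1 shares 157 of 8532 with Hk1os, and whether the libraries kept strand is not stated in the labels. Slc2a3, Slc2a4 and Hk2 shared no exon base with another gene in GENCODE M21.

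Hk2 took a smaller share of the hexokinase pair in each mutant heart than in any control heart. Hk2 made up 20.1%, 20.5% and 19.5% of the summed RPKM of Hk1 and Hk2 in controls 2, 5 and 9. Its share was 14.7%, 12.0% and 13.0% in mutants 5, 8 and 10. The mean share was 20.0% ± 0.498 in control and 13.2% ± 1.38 in mutant hearts, a difference of −6.79 percentage points (exact permutation test, two-sided p = 0.10, adjusted p = 0.13 over 4 shares). With 3 hearts against 3 this test cannot give less than 0.10. The share of control 2 lay between those of controls 5 and 9, although its level of each hexokinase was the lowest of the controls. A share within a heart does not depend on how the library was scaled. The sum of both hexokinases overlapped between the genotypes, at 38.6, 45.8 and 48.4 RPKM in controls 2, 5 and 9 and 42.6, 51.0 and 53.4 RPKM in mutants 5, 8 and 10 (log2 difference 0.15, exact permutation p = 0.40). That difference was 0.05 without control 2, 0.08 without mutant 10, 0.24 without mutant 5 and 0.02 without control 2 and mutant 8 together.

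**Figure D2:**
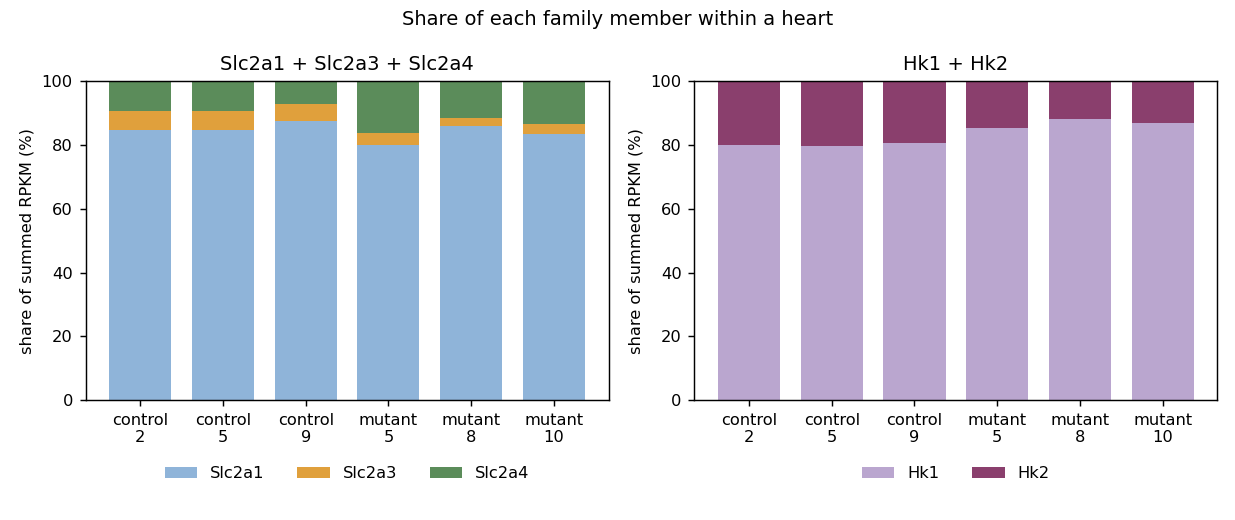
Share of each member in the summed RPKM of Slc2a1, Slc2a3 and Slc2a4 (left) or of Hk1 and Hk2 (right), in percent, with a bar for each heart. Hk2 takes 19.5% to 20.5% in control and 12.0% to 14.7% in mutant hearts, and Slc2a4 takes more and Slc2a3 less of the transporter sum in every mutant heart than in any control heart.

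Shares of the 3 transporters were compared in the same way. Slc2a1 took 84.8%, 84.6% and 87.6% of the sum of the 3 transporters in controls 2, 5 and 9, against 79.9%, 86.0% and 83.3% for mutants 5, 8 and 10 (exact permutation p = 0.30), with overlapping genotypes. The share of Slc2a3 was 5.93%, 6.10% and 5.36% in the controls and 3.80%, 2.56% and 3.22% in the mutants, in the same order of hearts. That of Slc2a4 was 9.31%, 9.27% and 7.01% against 16.3%, 11.4% and 13.5%. Neither overlapped between the genotypes (exact permutation p = 0.10 and adjusted p = 0.13 for each). The sum of the 3 transporters was 68.5 ± 15.2 RPKM for the controls and 51.7 ± 6.91 RPKM for the mutants (log2 difference −0.39, exact permutation p = 0.20). Control 2 and mutant 8 had the lowest control sum and the highest mutant sum (51.6 and 59.1 RPKM). The log2 difference was −0.68 without both of them, −0.58 without control 2 alone, −0.25 without control 9 and −0.30 without mutant 5.

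Ratios within a heart tested whether 2 members differed in their response. Each of 4 log2 ratios of RPKM + 1 separated the genotypes and reached the smallest possible exact permutation p = 0.10 (adjusted p = 0.10 over the 4). Hk2 to Hk1 was −1.86, −1.85 and −1.94 in controls 2, 5 and 9, against −2.36, −2.68 and −2.58 for mutants 5, 8 and 10, a difference of −0.66. Controls differed from each other by far less than from the mutants. Slc2a3 to Slc2a4 was −0.51, −0.51 and −0.32 against −1.62, −1.63 and −1.58, in the same order, a difference of −1.16. This difference was −1.56 with no pseudocount and −0.59 with a pseudocount of 5, where that of Hk2 to Hk1 was −0.51. As a plain ratio of RPKM, Slc2a3 stood at 0.686 ± 0.0681 of Slc2a4 in control and 0.232 ± 0.00712 in mutant hearts. Slc2a4 to Slc2a1 differed by 0.68 and Slc2a3 to Slc2a1 by −0.48. The size of the latter depended on the pseudocount. It was −0.83 with none and −0.04 with a pseudocount of 5 (exact permutation p = 0.70), which exceeds every Slc2a3 value. As plain ratios of RPKM, Slc2a3 stood at 0.0612 to 0.0720 of Slc2a1 in control and 0.0298 to 0.0475 in mutant hearts.

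**Figure D3:**
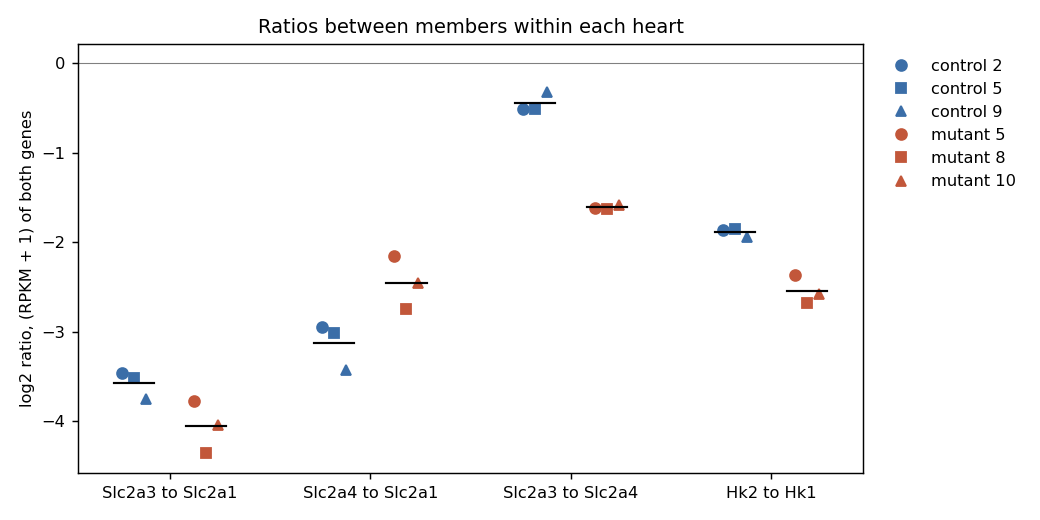
Log2 ratio of RPKM + 1 between pairs of members within each heart, with a symbol for each heart, controls in blue, mutants in red, and a black line at the mean of 3 hearts. The 3 mutant values of Slc2a3 to Slc2a4 lie between −1.63 and −1.58, and those of Hk2 to Hk1 lie below all 3 controls.

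On the per-length scale of RPKM the order of the levels also differed. In each control heart it ran from Slc2a1 over Hk1, Hk2 and Slc2a4 to Slc2a3, and no neighbours in that order overlapped. In the mutants Slc2a1 (mean 43.1 RPKM) and Hk1 (42.6 RPKM) overlapped, with Slc2a1 above Hk1 in 1 of 3 hearts. Slc2a4 (7.00 RPKM) and Hk2 (6.44 RPKM) overlapped too, with Slc2a4 above Hk2 in 2 of 3 hearts, whereas Hk2 was above Slc2a4 in all 3 controls.

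Promoter windows of 3 of the 5 members, Slc2a1, Hk2 and Hk1 (the last with 2 starts), were taken from a table of RefSeq sequences (GRCm38.p6), and those of Slc2a3 and Slc2a4 were not analysed here. Only these 3 members had a promoter among the sequences used, so Slc2a3, the only member called, is not covered. Of the genes shown, Slc2a1 and Hk2 had lower and Hk1 higher means in the mutant hearts. The letters searched were ACGTG and GCGTG on both strands, the core that HIF1 binds, in windows from 250 bases before to 50 after the start. Of 32851 windows of this length 43.8% held at least 1 match (19.6% for ACGTG and 32.4% for GCGTG). Capitals mark matches, and a match on the other strand reads CACGT or CACGC. No member window held the palindrome CACGTG. The Slc2a1 stretch is chr4:119108495-119108710 (plus strand), ending just before the first annotated exon, and the Hk2 stretch is chr6:82774455-82774704 (minus strand), ending at the base before the start.
Slc2a1: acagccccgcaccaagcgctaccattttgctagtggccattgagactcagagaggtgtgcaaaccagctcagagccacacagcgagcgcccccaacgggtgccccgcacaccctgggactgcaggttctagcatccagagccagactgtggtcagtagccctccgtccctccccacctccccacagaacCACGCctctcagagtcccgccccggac
Hk2: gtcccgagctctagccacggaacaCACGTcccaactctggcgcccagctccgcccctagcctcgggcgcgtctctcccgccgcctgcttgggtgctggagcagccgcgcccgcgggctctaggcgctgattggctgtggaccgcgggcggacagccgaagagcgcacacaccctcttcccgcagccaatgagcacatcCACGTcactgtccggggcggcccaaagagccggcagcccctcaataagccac
Slc2a1 held 2 matches. The printed one begins at −61 from the start, and the other, an ACGTG on the gene's strand that begins at −36, lies at chr4:119108702-119108721.
Slc2a1 second match: gccccggACGTGctccccag
Hk2 held 2 ACGTG matches, both on the other strand, with first bases at −226 and −52 from the start. Hk1 held no match at its upstream start (62379908) and 5 at its downstream start (62340421), and 8.93% of all windows held 3 or more. Of these 5, a match on the other strand begins at −196. An overlapping pair is at chr10:62340423-62340442 and 2 ACGTG are at chr10:62340398-62340417 (both minus strand).
Hk1 pair before the start: tgccacCACGCGTGaccgcg
Hk1 pair after the start: cttACGTGgggaACGTGcag
Matches were present in windows of all 3 genes, none of which was called, and 43.8% of all windows held a match. Which Hk1 start is used, and whether any match is bound in these hearts, was not measured.

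No tested gene passed among the other hexose or glucose-6-phosphate transporters and the other enzymes that phosphorylate glucose or dephosphorylate glucose-6-phosphate. Of 15 other transporters listed 9 were in the table and 3 were tested, with a median log2 change of −0.06, against −0.03 over all tested genes. Slc37a4, the glucose-6-phosphate carrier of the endoplasmic reticulum, had means of 5.06 ± 0.851 (control) and 3.66 ± 0.110 RPKM (mutant) (limma adjusted p = 0.28). Slc2a8, an intracellular hexose carrier, measured 2.22 and 2.52 RPKM and the sodium-coupled carrier Slc5a2 3.58 and 3.46 RPKM. Of 8 other enzymes 4 were in the table and 2 were tested, the phosphatase G6pc3 (6.32 and 7.07 RPKM) and the ADP-dependent sugar kinase Adpgk (3.03 and 2.92 RPKM). Below the filter of 1 RPKM in 3 hearts, the fructose carrier Slc2a5 was listed at 0.408 to 0.967 (control) and 0.105 to 0.272 RPKM (mutant), and the urate carrier Slc2a9 at 0.366 to 0.903 and 0.0499 to 0.357. A row is present only where the geometric mean of a genotype is 0.5 RPKM or more, so a low gene that is listed for its control level alone had to be lower in the mutants. Hk3, the hexokinase of myeloid cells, was listed at 0.433 to 0.632 and 0.204 to 0.715 RPKM.

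The genes that act on glucose-6-phosphate, or that move and retain the transporters, mostly did not pass. Of 31 tested regulators of transporter traffic and stability none passed, and the median log2 change was −0.01. Txnip, an arrestin that removes GLUT1 and GLUT4 from the surface, had means of 50.1 ± 7.17 (control) and 39.8 ± 5.19 RPKM (mutant) (limma adjusted p = 0.41), the endocytosis adaptor Ehbp1 5.44 and 4.30 RPKM (0.31) and the phosphoinositide 3-kinase subunit Pik3r1 2.96 and 2.25 RPKM (0.33). Of 23 tested genes that use glucose-6-phosphate, in glycolysis, the pentose phosphate pathway, glycogen and hexosamine synthesis, 1 fell and none rose, with a median log2 change of −0.04. That gene was the liver-type phosphofructokinase Pfkl, at 24.3, 31.1 and 33.0 RPKM in controls 2, 5 and 9 and 9.80, 10.6 and 10.0 RPKM in mutants 5, 8 and 10 (log2 change −1.44 ± 0.12 SE, limma adjusted p = 0.00094). Pgm2, a phosphoglucomutase, measured 63.1 and 44.7 RPKM (limma adjusted p = 0.11) and the platelet-type phosphofructokinase Pfkp 15.2 and 10.8 RPKM (0.22). Of 6 tested mitochondrial genes of the channels and carriers near bound hexokinase none passed. Their median was 0.13, with the adenine nucleotide carriers Slc25a4 at 501 and 599 RPKM and Slc25a5 at 439 and 485 RPKM and the matrix cyclophilin Ppif at 18.6 and 20.8 RPKM. Over all 5 lists, 1 of 65 tested genes was called, against 107 of all 13080 tested genes (0.818%). Of the 65 genes, 9 had mutant values below all controls and 6 above. Among all 13080 tested genes these counts were 1234 (9.43%) and 994 (7.60%).

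**Figure D4:**
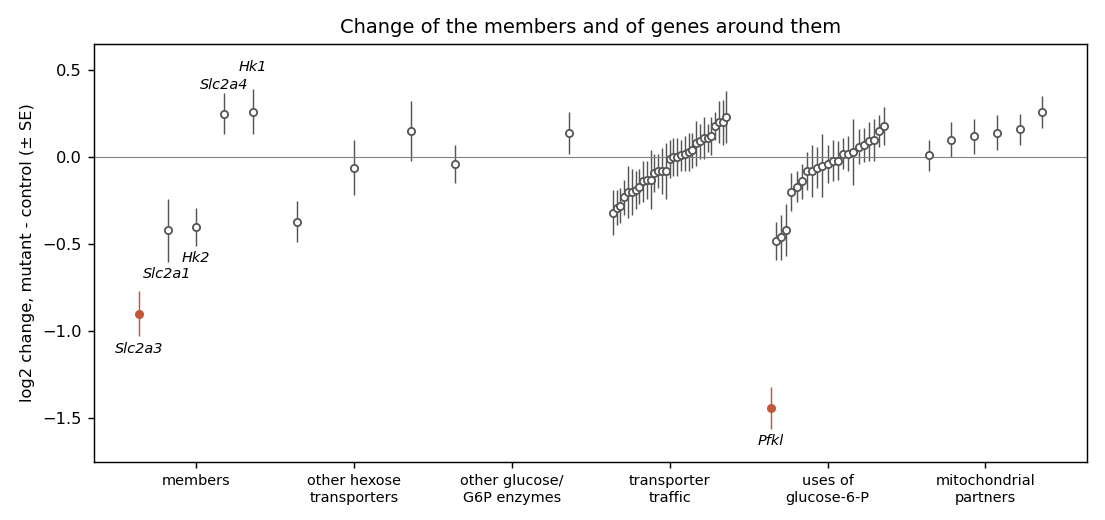
Log2 change, mutant minus control, on log2(RPKM + 1), with SE from limma, for the 5 members and the 65 tested genes of 5 lists around them, sorted by change within each group. Filled red points passed the adjusted p of 0.05 and are Slc2a3 and Pfkl (−1.44), and open points did not pass.

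The genes most like each member were sought among 8108 well-expressed genes, by the root mean square difference of log2(RPKM + 1), centred on each gene's mean, over the 6 hearts. Those closest to Slc2a3 were Loxl2, a lysyl oxidase-like enzyme (difference 0.0689), the potassium channel subunit Kcne1 (0.0938) and the liver glycogen phosphorylase Pygl (0.101), against 0.473 for the spread of Slc2a3 itself. Loxl2 measured 42.1 and 23.0 RPKM and Pygl 12.8 and 6.00 RPKM in control and mutant hearts. Slc2a3, at 3.95 and 1.62 RPKM, itself lay below the mean log2 value of 2 asked of the genes compared. At such low values RPKM + 1 shrinks a change more than at the level of Loxl2. For Hk2 they were P4ha1, a catalytic subunit of collagen prolyl hydroxylase (0.0392, at 17.0 and 12.4 RPKM), Pdxp and Sspn. Slc2a1 was followed less closely, by Fam57b (0.128), the galactokinase Galk1 (0.142) and Pgm2 (0.145), against a spread of 0.325. The profile of Slc2a4 was nearest to the creatine transporter Slc6a8 (0.0259), Rab20 and Nsun4, and that of Hk1 to Atg4d (0.0274), Pop5 and the muscle glycogen phosphorylase Pygm (0.0385).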

How the data were processed

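Total RNA from 6 mouse hearts was sequenced with Illumina protocols, per the labels. The submitters' processing notes name Trim Galore, TopHat2 and mm10. No source used here states the counter, the annotation release or strand. The deposited RPKM values, made by the authors, are linear, one column for each heart, over listed constitutive exons. In single-exon genes 85.1% to 93.4% of low values were whole multiples of a read (within 0.1), with the length taken as annotated minus 1 base.

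Genes reaching 1 RPKM in 3 or more hearts were fitted with limma 3.58.1 (R 4.3.3, trend) on log2(RPKM + 1), without covariates, with Benjamini-Hochberg adjustment over all 13080 genes, two-sided. On simulated data for this comparison and these 13080 genes the fit recovered 50.8% of genes changed by 0.6 and 86.0% changed by 1, with 4.60% false calls. The simulation drew each gene on its own, without variation shared between genes such as the first component. These rates may therefore not hold for the real hearts. Shares, sums and ratios were tested with exact permutation (scipy 1.17.1). The members, the lists and the markers were chosen with earlier results of these data known. Named were all members, the 3 members of each list with the smallest p (with any called), and the 3 most like genes. Positions come from GENCODE M21 (mm10). Alternatives were other scalings, filters, pseudocounts and priors, subsets of hearts and a covariate.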

Additional observations from a re-analysis of the deposited data

How the results depend on the processing

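No paired analysis was possible because the genotypes share only the sample number 5. Over 17 alternative settings of the fit (16 for Slc2a3, which the minimum of 5 RPKM removes) no member changed direction, under either other scaling or any other setting. Slc2a4 and Hk1 passed in none, with log2 changes of 0.15 to 0.36 and 0.06 to 0.36 and limma adjusted p of 0.32 to 0.85 and 0.21 to 0.90. Slc2a1 gained a call without control 2 and mutant 8 together (−0.74), its lowest control and highest mutant, where the difference had to widen. With the 5S sum as a covariate (−0.76), chosen after seeing the data, the difference also had to widen, and Slc2a1 gained a call too. Slc2a3 lost its call in 3 settings, with −0.91 to −0.83 over the single hearts whose removal ended it and −0.81 without control 9 and mutant 8 together. Leaving out a heart at a time gave −1.04 to −0.83 for Slc2a3. The cause was not tested. The number of genes called was 107, between 40 and 198 without a heart (40 without mutant 10, 43 and 52 without controls 5 and 2, 67 without control 9, 198 without mutant 5) and 53 without control 9 and mutant 8. Called genes were 57 higher and 34 lower after median centring and 54 and 79 after rescaling without haemoglobin, against 55 and 52.

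Without control 2 and mutant 8 the log2 difference of the transporter sum was −0.679. The ratio of Slc2a3 to Slc2a1 was −0.783, −0.832 and −0.0367 with a pseudocount of 0.1, none and 5. That of Slc2a3 to Slc2a4 was −1.51, −1.56 and −0.593 in the same settings, and that of Hk2 to Hk1 was −0.508 with a pseudocount of 5. All other values of shares, sums and ratios moved by less than the pooled SD within genotypes. Depth set counting errors of 0.574% to 3.01% at the lowest heart of each member, below the SD between hearts.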
